A study of Danio rerio with 6 samples.

Results

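The mitochondrially encoded genes are those carried by the mitochondrial chromosome itself (MT in build GRCz11). They were taken as every gene that the deposited annotation places on MT and that the deposited count table holds, which gave 36 of 22350 genes. These were 13 mRNAs, 2 rRNAs and 21 tRNAs, out of 37 MT genes in the annotation; trnL2 was not analysed here. RNA came from wild-type (AB) zebrafish larvae, all with a fully transected spinal cord at 5 days post fertilization and 6 h of recovery before treatment. One group was then kept in IWR-1, a tankyrase inhibitor that blocks Wnt signalling by stabilising Axin, at 35 µM with 0.25% DMSO. The other group was kept in 0.25% DMSO alone. Tissue was taken 3 days after injury, at 8 days post fertilization, as a trunk segment of 1 mm around the cut, with 20 animals pooled per sample and 3 biological replicates per group. Every larva was injured, and no uninjured samples were analysed here.

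The mitochondrial genome is transcribed from both strands as long precursors. Most genes lie on one strand, here the plus strand of the annotation, and mt-nd6 lies on the other with a minority of the tRNAs. The tRNAs sit between the other genes, and cutting them out releases the mRNAs and rRNAs. The mRNAs encode core subunits of the respiratory chain and of ATP synthase, while the remaining subunits, the mitochondrial ribosomal proteins and the whole apparatus of mitochondrial transcription, RNA processing and translation are encoded in the nucleus. The steady level of each mature RNA therefore depends on its stability and processing as well as on transcription. Skeletal muscle, which makes up much of the trunk, is rich in mitochondria.

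The libraries were depleted of rRNA and summed to between 11014963 (DMSO replicate 2) and 15219664 counts. The tissue is a mixture, and all 23 neuron markers listed were expressed above the filter. The nuclear genes with the most counts included muscle transcripts (ttn.1, ttn.2, actc1b, atp2a1) and the non-coding RNAs RF00017 and CR383676.1. DMSO replicate 2 stood apart from the other DMSO libraries within the mitochondrial genes, so values without it are given beside the shares, ratios and fold changes that it moved most. Throughout, CPM are counts relative to the TMM-scaled library size, and "edgeR adjusted p" is the Benjamini-Hochberg adjusted p of edgeR's quasi-likelihood test over 19562 tested genes, called below 0.05. Exact permutation tests of 3 against 3 libraries are two-sided and cannot give a p below 0.1. The same floor of 0.1 holds for 3 against 2 libraries. Exact paired tests over 3 replicate numbers cannot give a p below 0.25.

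No mitochondrially encoded gene passed the edgeR test, and the summed mRNAs took nearly the same share of the libraries in both groups. Of the 36 genes, 32 were expressed above the filter; trnV, trnG, trnS2 and trnT were not. Of these 32, 0 were called higher, where 3.88% of all tested genes were, and 0 were called lower, where 3.59% were. At an unadjusted edgeR p below 0.05, 1 was higher (mt-rnr1; 11.6% of all genes) and 4 were lower (mt-nd6, trnI, trnQ and trnE; 12.5% of all genes). DESeq2 called 0 of the 32 (9.29% of all genes). In the authors' deposited table no member had an adjusted p below 0.05, where 8.01% of its 22350 genes had; its smallest values were 0.0680 for trnQ and 0.0951 for trnE. With the replicate number as a block, 3 were called higher (mt-rnr1, mt-rnr2 and mt-atp8; 8.96% of all genes) and 4 lower (trnI, trnQ, mt-nd6 and trnE; 8.86% of all genes). limma voom with sample weights called the same 3 genes higher (12.1% of all genes) and 0 lower (10.9% of all genes). The groups of libraries did not overlap for 2 of the 32 genes, trnQ and trnE, both lower with IWR-1, and for 0 higher; over all tested genes 15.6% were lower and 14.2% higher without overlap.

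By class, the mitochondrial rRNAs held most of the mitochondrial counts and varied most between libraries in absolute amount. All mitochondrially encoded genes together took 9.22%, 9.69% and 12.7% of IWR-1 libraries 1, 2 and 3, against 7.08%, 6.32% and 10.4% of DMSO libraries 1, 2 and 3. The 2 rRNAs alone took 7.27%, 7.24% and 10.19% of the IWR-1 libraries, against 4.98%, 3.98% and 7.90% of the DMSO libraries. Within each replicate number the IWR-1 library had the higher rRNA share, but DMSO replicate 3 lay above IWR-1 replicates 1 and 2, so the groups overlapped. The mean rRNA share was 8.23% ± 1.69 with IWR-1 and 5.62% ± 2.03 with DMSO (SD, n = 3 each), a 1.51-fold ratio of means on the log scale (log2 difference 0.59, beside a pooled SD within groups of 0.41; exact permutation p = 0.3). Without DMSO replicate 2 the log2 difference was 0.37, and that of all mitochondrially encoded genes together was 0.28 in place of 0.43. Without DMSO replicate 3 they were larger, at 0.87 for the rRNAs and 0.64 for all mitochondrially encoded genes (exact permutation p = 0.1 each, the smallest possible). DMSO replicate 3 was the only DMSO library that overlapped the IWR-1 libraries. Leaving it out separates the groups by choice, so these p values decide nothing. Within replicate numbers 1, 2 and 3 the log2 difference of the rRNA share was 0.55, 0.86 and 0.37 (exact paired p = 0.25).

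The 13 mRNAs together took 1.95%, 2.44% and 2.47% of the IWR-1 libraries, against 2.099%, 2.33% and 2.51% of the DMSO libraries. These values interleave, with a mean of 2.29% ± 0.29 with IWR-1 and 2.31% ± 0.21 with DMSO (SD, n = 3 each; exact permutation p = 0.8). The ratio of rRNA to mRNA counts was 3.73, 2.96 and 4.13 with IWR-1, against 2.37, 1.71 and 3.15 with DMSO. It was higher with IWR-1 within each replicate number, though DMSO replicate 3 exceeded IWR-1 replicate 2 (1.53-fold, log2 difference 0.61, exact permutation p = 0.2). That log2 difference was 0.39 without DMSO replicate 2 and 0.83 without DMSO replicate 3. The latter had an exact permutation p of 0.1, the smallest possible, which decides nothing once the only overlapping DMSO library is left out. In such bulk samples a different number of cells of a type and a different amount of RNA per cell cannot be told apart. Leftover rRNA of the nuclear genome moved in the same direction: over 147 annotated rRNA genes outside MT it was 0.0185%, 0.0151% and 0.0161% of the IWR-1 libraries, against 0.0150%, 0.0105% and 0.0149% of the DMSO libraries. Every IWR-1 library lay above every DMSO library for this share, but the closest were nearly equal. These were IWR-1 replicate 2 at 0.01509% and DMSO replicate 1 at 0.01497%. The part of the nuclear rRNA share in the mitochondrial rRNA difference was not tested.

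**Figure D1:**
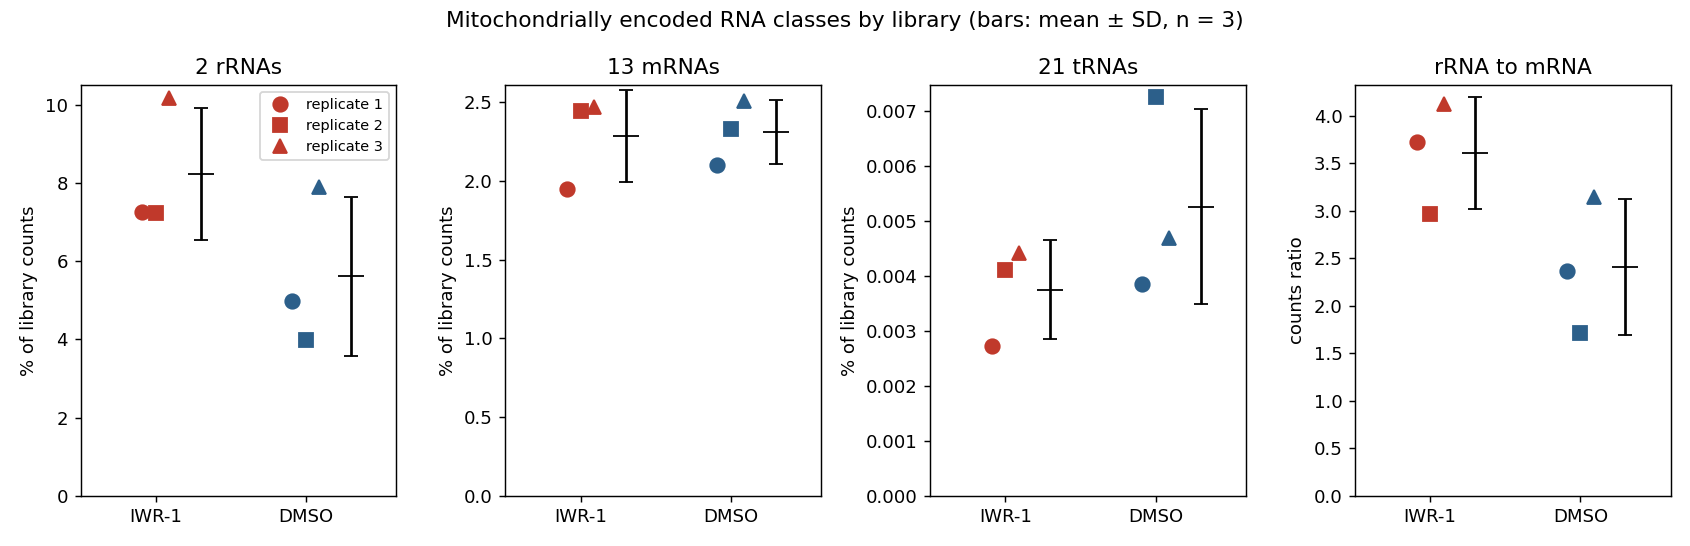
Share of each library's counts, in percent, held by the 2 mitochondrial rRNAs, the 13 mRNAs and the 21 tRNAs, and the ratio of rRNA to mRNA counts; each point is 1 library (red IWR-1, blue DMSO, shape by replicate number) and bars give mean ± SD of 3. The mRNA shares interleave between 1.95% and 2.51%, while the rRNA shares run between 3.98% (DMSO replicate 2) and 10.19% (IWR-1 replicate 3).

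The rRNAs are the RNA cores of the mitochondrial ribosome, mt-rnr1 (12S, plus strand, MT positions 1020 to 1971) of the small subunit and mt-rnr2 (16S, plus strand, positions 2043 to 3725) of the large subunit. mt-rnr1 stood at 21488, 18837 and 30859 CPM in IWR-1 libraries 1, 2 and 3, against 10485, 7728 and 22065 CPM in the DMSO libraries. DMSO replicate 3 fell among the IWR-1 libraries, and the other DMSO libraries lay below all of them. Its log2 fold change was 0.82 ± 0.34 (SE; edgeR adjusted p = 0.174), and 0.55 without DMSO replicate 2. It was 0.94 with the replicate block (edgeR adjusted p = 0.000579). With the block and without DMSO replicate 2 it was 0.76 (edgeR adjusted p = 0.000883), an alternative chosen after seeing the data. In that alternative IWR-1 replicate 2 has no partner, so the difference rests on replicate numbers 1 and 3. Without DMSO replicate 3 mt-rnr1 was also called, at a log2 fold change of 1.38 (edgeR adjusted p = 0.00790), and limma voom gave an adjusted p of 0.0214.

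mt-rnr2 stood at 51843, 52098 and 71802 CPM with IWR-1, against 37776, 33605 and 57236 CPM with DMSO. Again DMSO replicate 3 was the one that overlapped the IWR-1 libraries. The log2 fold change was 0.45 ± 0.23 (SE; edgeR adjusted p = 0.263) and with the replicate block 0.47 (edgeR adjusted p = 0.0262). With the block and without DMSO replicate 2 the call was lost (0.39, edgeR adjusted p = 0.0799). The ratio of 12S to 16S counts was 0.414, 0.362 and 0.430 with IWR-1, against 0.278, 0.230 and 0.385 with DMSO. The ratio was higher with IWR-1 within every replicate number, and the groups overlapped through DMSO replicate 3 (1.38-fold, log2 difference 0.46, exact permutation p = 0.2). The log2 difference was 0.29 without DMSO replicate 2 and 0.67 without DMSO replicate 3. The latter again had the smallest possible p (exact permutation p = 0.1), with the only overlapping DMSO library left out, so it decides nothing.

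Levels of the rRNAs and mRNAs were compared per length of the annotated gene. mt-rnr2 averaged 34808 ± 6804 CPM per kb with IWR-1 and 25474 ± 7494 with DMSO (SD, n = 3 each), and mt-rnr1 averaged 24924 ± 6635 CPM per kb with IWR-1 and 14103 ± 7991 with DMSO. The level of an rRNA here is what depletion left behind. Among mRNAs, mt-co1, the catalytic subunit of cytochrome c oxidase, was the highest, with 5838 ± 736 CPM per kb with IWR-1 and 6069 ± 942 with DMSO. By their means, mt-co3, mt-co2, mt-cyb, mt-atp6 and mt-nd1 came next, and these genes kept that order among themselves in each of the 6 libraries, although mt-nd6 in DMSO replicate 2 and mt-atp8 in 2 IWR-1 libraries lay above mt-nd1. mt-nd6, mt-atp8, mt-nd4 and mt-nd5 followed at means over all libraries between 1119 and 901 CPM per kb; mt-nd6 lay above mt-atp8 in only 2 of 6 libraries and mt-atp8 above mt-nd4 in 4, so these neighbours are not separated. mt-nd3 and mt-nd2 (498 and 493 CPM per kb) each led in 3 libraries, and mt-nd4l was the lowest, with 330 ± 27.3 CPM per kb with IWR-1 and 361 ± 181 with DMSO. By this measure the cytochrome c oxidase mRNAs stood above most complex I mRNAs in both groups, although plus-strand mRNAs share 1 long precursor. CPM per kb can also differ between genes of a common mRNA. mt-atp8 and mt-atp6, which form one in vertebrates, averaged 1089 and 1760 CPM per kb over all libraries. mt-nd4l and mt-nd4, which share 7 bases, averaged 346 and 1059. The part of gene length and shared bases in this order was not tested.

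**Figure D2:**
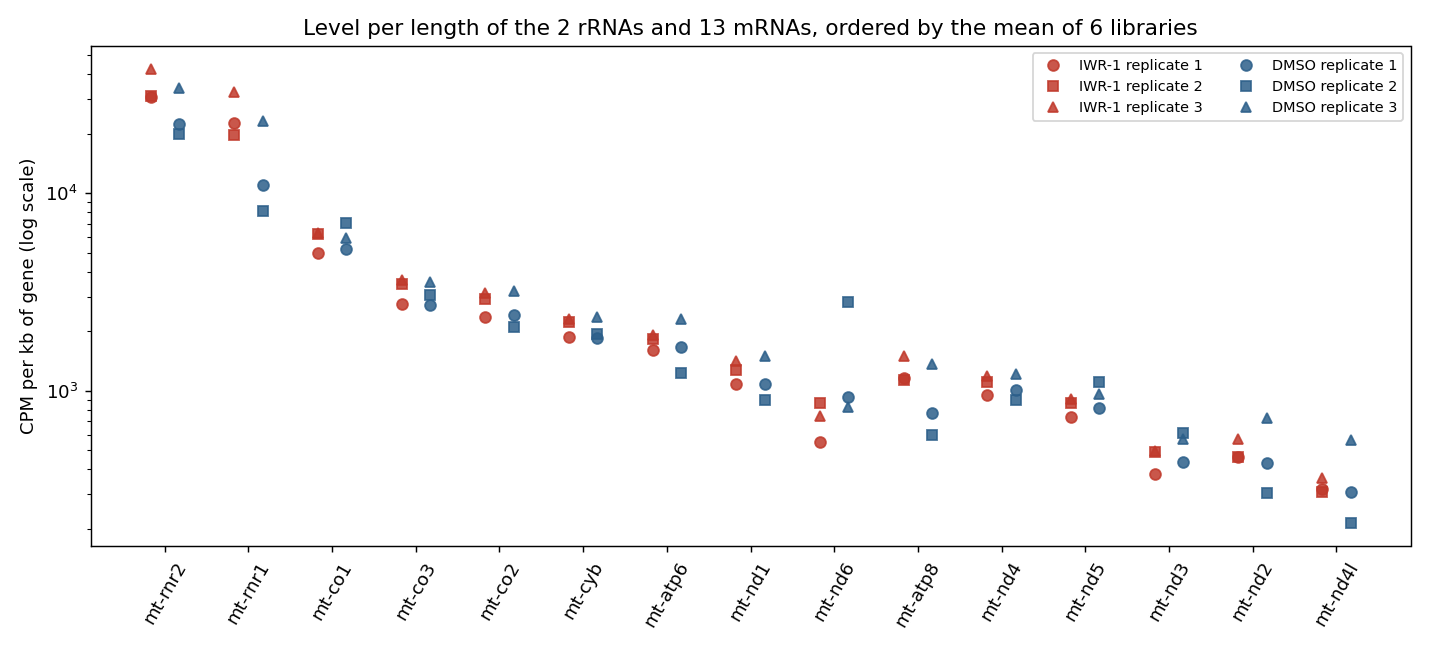
Level per length (CPM per kb of gene, log axis) of the 2 rRNAs and 13 mRNAs in each of the 6 libraries, red for IWR-1 and blue for DMSO, ordered by the mean. mt-nd6 in DMSO replicate 2, at 2799 CPM per kb, lies above the other 5 libraries, which run between 549 and 928 CPM per kb.

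The mRNAs of complex I, the NADH dehydrogenase, are mt-nd1 to mt-nd6 with mt-nd4l; 7 genes, of which mt-nd6 alone is on the minus strand. Log2 fold changes of the 6 on the plus strand lay between -0.25 (mt-nd3) and 0.11 (mt-nd1), and their edgeR adjusted p values between 0.405 and 0.968. mt-nd3 stood at 133, 171 and 175 CPM with IWR-1, against 154, 214 and 201 CPM with DMSO. Its values overlapped, at a log2 fold change of -0.25 ± 0.17 (SE). mt-nd5, the largest of the mRNAs, stood at 1349, 1574 and 1662 CPM with IWR-1, against 1483, 2015 and 1761 CPM with DMSO, likewise with overlap (-0.20 ± 0.17). mt-nd2 differed little in mean, with a log2 fold change of 0.02 ± 0.26, but spread widely among DMSO libraries: it stood at 485, 482 and 595 CPM with IWR-1, against 453, 320 and 763 CPM with DMSO. Without DMSO replicate 2 the log2 fold change was -0.22 for mt-nd2, and -0.40 in place of -0.13 for mt-nd4l.

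Of complex III, the mitochondrial genome encodes only mt-cyb, cytochrome b. It stood at 2145, 2541 and 2646 CPM with IWR-1, against 2116, 2217 and 2692 CPM with DMSO (log2 fold change 0.06 ± 0.16, edgeR adjusted p = 0.851). Of complex IV, mt-co1 stood at 7736, 9696 and 9732 CPM with IWR-1, against 8051, 10956 and 9234 CPM with DMSO. Its groups overlapped (log2 fold change -0.06 ± 0.18, edgeR adjusted p = 0.877). mt-co2, which holds the copper site that takes electrons from cytochrome c, had a log2 fold change of 0.11 ± 0.19, and mt-co3, a structural core subunit, one of 0.08 ± 0.17, with edgeR adjusted p values of 0.755 and 0.808.

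ATP synthase takes mt-atp6, part of its proton channel, and mt-atp8, a small membrane subunit, from this genome. mt-atp8 (plus strand, positions 8894 to 9058) stood at 191, 186 and 248 CPM with IWR-1, against 127, 98.6 and 227 CPM with DMSO. As for the rRNAs, DMSO replicate 3 lay among the IWR-1 libraries and the other DMSO libraries below them. The log2 fold change was 0.47 ± 0.26 (SE; edgeR adjusted p = 0.310), without DMSO replicate 2 it was 0.24 (edgeR adjusted p = 0.604), and with the replicate block 0.54 (edgeR adjusted p = 0.0165). With the block and without DMSO replicate 2 it was 0.36 (edgeR adjusted p = 0.112), and without DMSO replicate 3 it was 0.88 (edgeR adjusted p = 0.0145); limma voom gave an adjusted p of 0.0339. mt-atp8 shares 7 bases with the start of mt-atp6, with which it forms a common mRNA in vertebrates, but mt-atp6 had a log2 fold change of 0.03 ± 0.21. mt-atp8 is the shortest mRNA gene of the genome, at 165 bases.

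Over the 13 mRNAs the median log2 fold change was 0.03, with 8 above 0 and 5 below, beside a median of -0.01 over all tested genes. With single libraries left out the mRNA median ran from -0.04 (without DMSO replicate 2) to 0.18 (without DMSO replicate 3). In limma voom it was 0.15. The median SD of log2 CPM within a group was 0.26 for the mRNAs, 0.48 for the rRNAs and 0.60 for the tested tRNAs, against 0.25 over all tested genes. Within the mRNA pool, mt-co1 made up 39.3%, 40.5% and 39.1% of mitochondrial mRNA counts with IWR-1, against 39.5%, 45.4% and 36.6% with DMSO (exact permutation p = 0.8). The mt-nd6 share averaged 1.62% with IWR-1 and 3.37% with DMSO (0.556-fold), and the mt-atp8 share 0.915% with IWR-1 and 0.644% with DMSO (1.49-fold), both with overlapping groups (exact permutation p = 0.2 each). Without DMSO replicate 2 their log2 differences were -0.32 in place of -0.85 and 0.28 in place of 0.57. Of the 13 mRNA shares, mt-nd3 and mt-nd5 were the ones whose groups did not overlap, both lower with IWR-1. In CPM, a different measure, 15.6% of all tested genes were lower and 14.2% higher without overlap. mt-nd3 made up 0.678%, 0.716% and 0.703% with IWR-1, against 0.755%, 0.887% and 0.797% with DMSO (log2 difference -0.21). mt-nd5 made up 6.86%, 6.57% and 6.68% with IWR-1, against 7.28%, 8.34% and 6.99% with DMSO (-0.17). Both reached the smallest p these groups allow (exact permutation p = 0.1 each, unadjusted over 13 shares). The log2 differences were -0.15 for mt-nd3 and -0.09 for mt-nd5 without DMSO replicate 2.

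The minus-strand mRNA mt-nd6 (positions 14714 to 15232), a membrane subunit of complex I, had the lowest log2 fold change of the mRNAs with all libraries, and most of it lay in 1 DMSO library. Without DMSO replicate 2 mt-nd4l was lower, at -0.40, against -0.28 for mt-nd6. mt-nd6 stood at 285, 448 and 386 CPM with IWR-1, against 482, 1453 and 432 CPM with DMSO. DMSO replicate 2 was far above the rest, and IWR-1 replicate 2 exceeded DMSO replicate 3, so the groups overlapped. The log2 fold change was -1.08 ± 0.40 (SE; edgeR adjusted p = 0.126) and without DMSO replicate 2 it was -0.28 (edgeR adjusted p = 0.393). With the replicate block it was called lower (-0.87, edgeR adjusted p = 0.0278). With the block and without DMSO replicate 2, which left IWR-1 replicate 2 unpaired, it was -0.46 (edgeR adjusted p = 0.0450). Without DMSO replicate 3 it was called lower at -1.38 (edgeR adjusted p = 0.0413).

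Set against the other 12 mRNAs, all from the opposite strand, the ratio of mt-nd6 counts was 0.0147, 0.0191 and 0.0157 with IWR-1, against 0.0242, 0.0640 and 0.0175 with DMSO. It was lower with IWR-1 within each replicate number, with log2 differences of -0.72, -1.75 and -0.15 (exact paired p = 0.25; exact permutation p = 0.2 without pairing). Without DMSO replicate 2 the log2 difference was -0.33. mt-nd6 overlaps the end of mt-nd5 on the opposite strand by 4 bases. The strand setting of the counting is not given in the sources used here; if strand was ignored, antisense RNA across mt-nd6 or across a tRNA would be counted with the gene.

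The tRNAs, which carry amino acids to the mitochondrial ribosome, were measured at the edge of detection. The 21 tRNAs together took 0.00273%, 0.00410% and 0.00443% of the IWR-1 libraries, against 0.00385%, 0.00725% and 0.00468% of the DMSO libraries. They made up 0.0471% of all mitochondrial counts, and single tRNAs had between 0 and 175 counts in a library. The annotated tRNA genes are 68 to 77 bases long, and mature tRNAs, short and heavily modified, are poorly caught by a standard RNA-seq library. The ratio of tRNA to mRNA counts was 0.00140, 0.00168 and 0.00179 with IWR-1, against 0.00184, 0.00312 and 0.00187 with DMSO. These groups did not overlap, at a 0.733-fold ratio (log2 difference -0.45) and the smallest p possible (exact permutation p = 0.1). This was -0.20 without DMSO replicate 2 (exact permutation p = 0.2).

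The tRNAs with the most counts were trnI, trnS1, trnQ and trnM. trnI (isoleucine, plus strand, positions 4781 to 4854) had 69, 89 and 111 counts with IWR-1, against 83, 114 and 175 counts with DMSO. In CPM the groups overlapped (4.95, 6.99 and 7.86 with IWR-1, against 6.63, 10.7 and 11.5 with DMSO), at a log2 fold change of -0.55 ± 0.25 (edgeR adjusted p = 0.206; 0.0421 with the replicate block, and 0.138 with the block and without DMSO replicate 2). trnQ (glutamine, minus strand, positions 4852 to 4922), which overlaps trnI by 3 bases on the other strand, had 2.44, 3.46 and 3.26 CPM with IWR-1, against 3.99, 10.17 and 4.36 CPM with DMSO. All IWR-1 libraries lay below all DMSO libraries. Its log2 fold change was -0.995 ± 0.35 (edgeR adjusted p = 0.117; 0.0151 with the replicate block), and without DMSO replicate 2 it was -0.45 (edgeR adjusted p = 0.315). With the block and without that library it was -0.55 (edgeR adjusted p = 0.212), so that call was lost.

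trnE (glutamate, minus strand, positions 15233 to 15301), the neighbour of mt-nd6, had only 7, 5 and 8 counts with IWR-1, against 10, 31 and 14 counts with DMSO. Its groups did not overlap in CPM either, with a log2 fold change of -1.59 ± 0.56 (edgeR adjusted p = 0.113; 0.0411 with the replicate block). Without DMSO replicate 2 this was -0.81 (edgeR adjusted p = 0.350), and with the block and without that library the edgeR adjusted p was 0.521. trnS1, one of the serine tRNAs, on the minus strand, ran at 3.37, 5.19 and 4.96 CPM with IWR-1, against 5.03, 14.6 and 2.71 CPM with DMSO, so the groups overlapped. Its log2 fold change was -0.69 ± 0.49, and 0.24 without DMSO replicate 2. trnM, the methionine tRNA of the plus strand, had a log2 fold change of -0.21 ± 0.25. trnW, the tryptophan tRNA, was called lower only with the block and without DMSO replicate 2 (log2 fold change -1.05, edgeR adjusted p = 0.0410). That fit left IWR-1 replicate 2 unpaired, and trnW had only 15 to 42 counts per library.

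Of the 17 tested tRNAs, 12 had a log2 fold change below 0 and 5 above, with a median of -0.39. The 8 on the minus strand had a median of -0.82 and the 9 on the plus strand one of -0.21. Without DMSO replicate 2 the medians were -0.19 and -0.07. The ratio of minus-strand to plus-strand tRNA counts, a measure chosen after the values were seen, was 0.778, 0.695 and 0.736 with IWR-1, against 0.975, 1.61 and 0.527 with DMSO. The IWR-1 libraries lay close together inside the wide DMSO range (exact permutation p = 0.6), and without DMSO replicate 2 the log2 difference was 0.04 in place of -0.35.

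**Figure D3:**
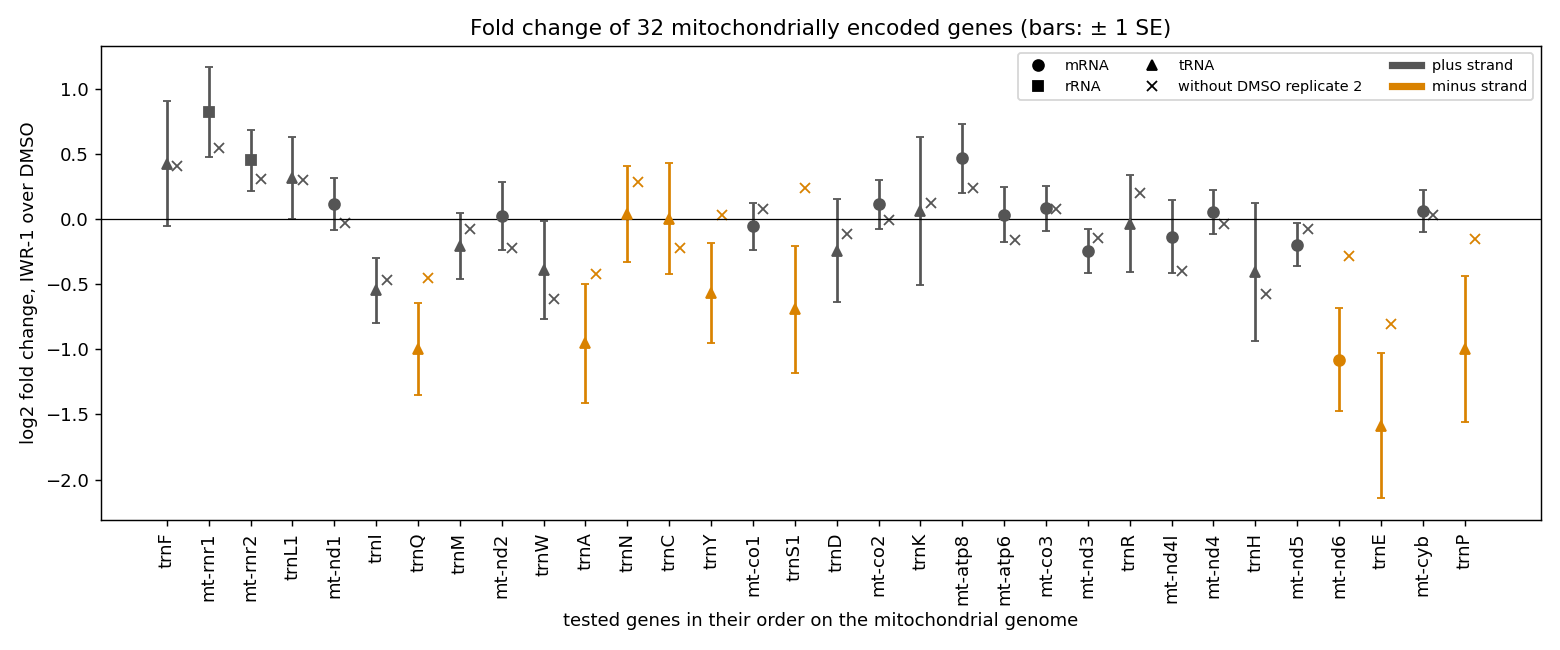
Log2 fold change of IWR-1 over DMSO for the 32 tested mitochondrially encoded genes in genome order, with bars of 1 SE, shape by RNA class and colour by strand; crosses give the value without DMSO replicate 2. mt-nd6, trnQ and trnE of the minus strand move to -0.28, -0.45 and -0.81 without that library, against -1.08, -0.995 and -1.59 with it.

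DMSO replicate 2 differed unevenly over the mitochondrial genome from the other DMSO libraries, with most minus-strand genes above them. Relative to the mean CPM of DMSO replicates 1 and 3, mt-nd6 was 3.18-fold, trnS1 3.77-fold, trnP 3.63-fold and trnE 3.39-fold in this library. It had the highest CPM of the 6 libraries for 7 of the 8 minus-strand tRNAs, trnC being the exception (0.503-fold), and for 5 of the 13 plus-strand tRNAs. On the plus strand mt-rnr1 stood at 0.475-fold, mt-nd4l at 0.491-fold, mt-nd2 at 0.526-fold and mt-atp8 at 0.557-fold. These plus-strand ratios also reflect DMSO replicate 3, the highest DMSO library for each of these genes. In DMSO replicates 1, 2 and 3, mt-rnr1 stood at 10485, 7728 and 22065 CPM and mt-nd4l at 91.2, 63.5 and 167 CPM. mt-nd2 stood at 453, 320 and 763 CPM and mt-atp8 at 127, 98.6 and 227 CPM. For each, DMSO replicate 1 lay nearer to replicate 2 than to replicate 3. mt-co1 (1.27-fold), mt-nd5 (1.24-fold) and mt-nd3 (1.21-fold) were instead above the other DMSO libraries. Over the 13 mRNAs it was the lowest library for 7 and the highest for 4, while their summed share was 1.01-fold that of the other DMSO libraries. This library also had the smallest total and the lowest nuclear rRNA share, and their part in these differences was not tested.

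**Figure D4:**
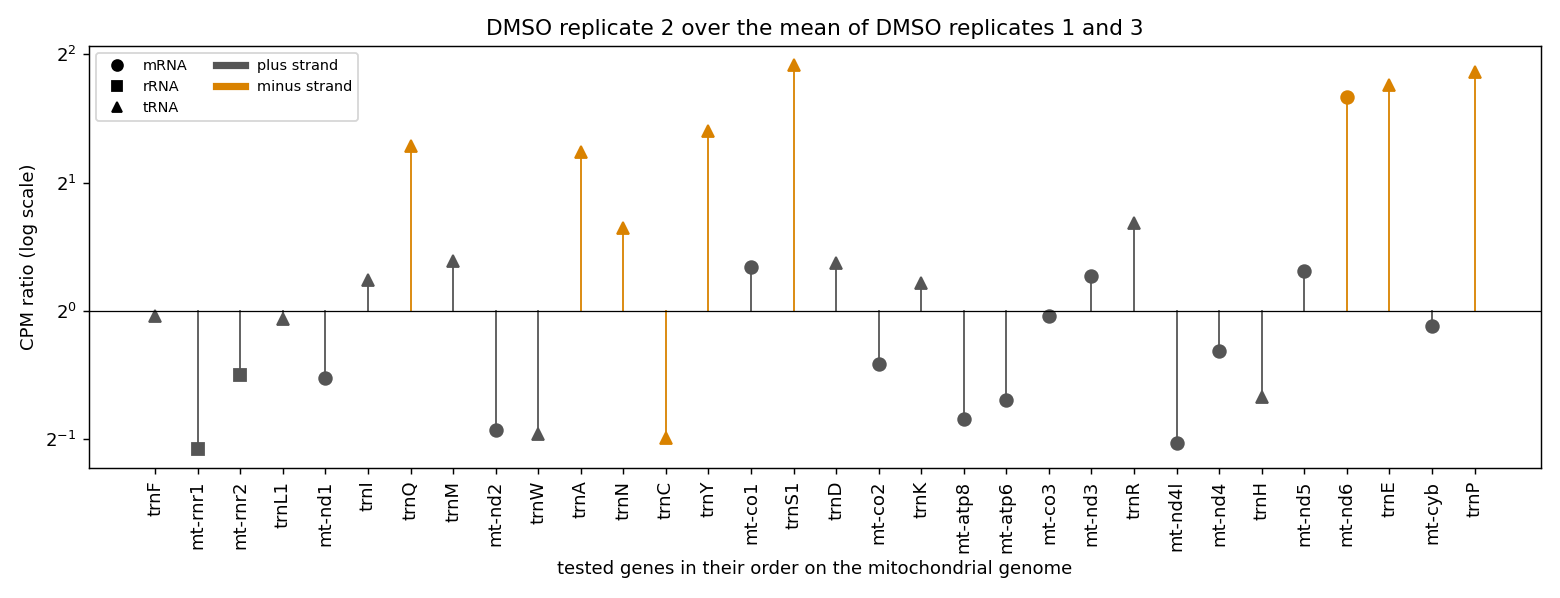
CPM in DMSO replicate 2 over the mean of DMSO replicates 1 and 3 (log axis) for each tested mitochondrially encoded gene in genome order, colour by strand and shape by RNA class. All minus-strand genes but trnC lie above 1, up to 3.77-fold for trnS1, while mt-rnr1 and mt-nd4l lie near 0.475-fold and 0.491-fold. For mt-rnr1 and mt-nd4l, DMSO replicate 1 lay nearer to replicate 2 than to replicate 3.

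Nuclear-encoded genes of mitochondria, given for comparison, lay mostly below 0. In 14 lists that hold 309 tested genes, 0 were called higher and 18 lower (5.83%, beside 3.59% of all genes), 241 had a log2 fold change below 0 (78.0%, beside 50.5% of all genes), and the median was -0.22. The mitochondrially encoded mRNAs had a median of 0.03; the difference between them and the nuclear lists was not tested. With the replicate block 66 were lower (8.86% of all genes) and 7 higher (8.96%). By list, the block gave 11 lower in each of the RNA processing and large ribosomal subunit lists, 8 in each of the small ribosomal subunit and membrane lists, 7 in complex I, 5 in complex III, 4 in each of complex IV and the stress response, 3 in each of ATP synthase and translation factors, 2 in transcription and replication, 1 in each of complex II and the synthetases and 0 in biogenesis. Genes that belong to more than 1 list count in each, so these lower counts add to more than 66. The 7 higher were 2 in each of complex IV and biogenesis, and 1 in each of the ATP synthase, transcription and replication, and membrane lists. The count of 18 was 5, 7 and 2 without IWR-1 replicates 1, 2 and 3 in turn, and 10 without DMSO replicate 1. Fewer genes were called lower over the whole table in these fits too. The shares of all tested genes were 2.13%, 1.38%, 0.957% and 1.70% in the same order.

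The respiratory chain subunits of the nucleus, partners of the mitochondrial mRNAs in the same complexes, had 1 gene called lower and 0 called higher. Over all tested genes 3.59% were called lower and 3.88% higher. The call was among 10 tested genes of complex III and cytochrome c. The 36 genes of complex I, 4 of complex II, 16 of complex IV and 18 of ATP synthase had 0 calls. The called gene was uqcrc1, a core subunit of complex III, at 114, 133 and 126 CPM with IWR-1, against 161, 212 and 183 CPM with DMSO. Its groups did not overlap (log2 fold change -0.58 ± 0.15, edgeR adjusted p = 0.0390), and its edgeR adjusted p ran between 0.0429 and 0.169 when single libraries were left out. The list medians were -0.17 for 36 complex I genes, -0.03 for 4 complex II genes, -0.36 for 10 genes of complex III and cytochrome c, -0.19 for 16 complex IV genes and -0.13 for 18 ATP synthase genes. By summed CPM, the complex I genes ran at 1047 to 1189 with IWR-1, against 1217 to 1473 with DMSO, and the ATP synthase genes at 2719 to 3220, against 3252 to 3726 with DMSO, in both cases without overlap. The complex II genes did not overlap either, at 300 to 332 with IWR-1, against 339 to 360 with DMSO. Nor did the genes of complex III and cytochrome c, at 725 to 861 with IWR-1, against 923 to 1149 with DMSO. The complex IV genes overlapped, at 647 to 823 with IWR-1, against 780 to 1063 with DMSO.

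Among nuclear subunits of high level that were not called, ndufv1, which binds NADH in complex I, had a log2 fold change of -0.46 ± 0.13 (edgeR adjusted p = 0.0593). In complex II, which has no mitochondrially encoded subunit, sdha had -0.19 ± 0.13 and sdhb 0.23 ± 0.13. cox4i1 and cox6b2 of complex IV had -0.46 ± 0.19 and -0.61 ± 0.21, and were called lower with the replicate block (edgeR adjusted p = 0.0262 and 0.00616), as was ndufv1 (0.0152). atp5f1b and atp5fa1, the catalytic head subunits of ATP synthase, had -0.29 ± 0.14 and -0.10 ± 0.15.

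Among the nuclear genes that act on mitochondrial RNA, 5 of 30 tested for processing, stability and tRNA modification were called lower and 0 higher. Over all tested genes 3.59% were called lower and 3.88% higher. The list median was -0.30. lrpprc, known in mammals to stabilise mitochondrial mRNAs, stood at 109, 119 and 106 CPM with IWR-1, against 176, 195 and 180 CPM with DMSO. The groups were well apart (log2 fold change -0.72 ± 0.13, edgeR adjusted p = 0.00889), and the edgeR adjusted p was 0.0751 without IWR-1 replicate 3. fastkd2, which binds the 16S rRNA in human cells, fell by 0.68 on the log2 scale, grsf1, an RNA granule protein in human cells, by 0.71, and tbrg4, which stabilises some mitochondrial mRNAs in human cells, by 0.61. elac2, the nuclease that trims the 3′ ends of tRNAs, fell by 0.56 and is named here because its count belongs to these 5, after its value was seen. The 15 genes of mitochondrial DNA transcription and replication had 0 calls and a median of -0.10. Among them polrmt, the mitochondrial RNA polymerase, had a log2 fold change of 0.04 ± 0.17 and tfb2m, its initiation factor, -0.50 ± 0.15 (edgeR adjusted p = 0.0785; 0.0259 with the replicate block).

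Of the mRNAs for large-subunit proteins of the mitochondrial ribosome (list median -0.33), 5 of 46 were called lower, beside 3.59% of all tested genes. These were mrpl17, mrpl19, mrpl54, mrpl3 and, named after its value was seen, mrpl44. Of the mRNAs for small-subunit proteins (list median -0.23), 1 of 31 was called lower (chchd1), again beside 3.59% of all tested genes. mrpl17 had 5.95, 7.07 and 5.38 CPM with IWR-1, against 10.23, 12.4 and 10.8 CPM with DMSO, a log2 fold change of -0.86 ± 0.18 (edgeR adjusted p = 0.0178). None of these called genes stayed called without IWR-1 replicate 3. mt-rnr1 and mt-rnr2, the rRNAs of the same ribosome, had log2 fold changes of 0.82 and 0.45 that were not called. Their levels are what depletion left behind, and the difference between rRNAs and protein mRNAs was not tested. Protein levels were not analysed here. Of 16 translation factors 1 fell, tufm, the elongation factor that brings tRNAs to the mitochondrial ribosome, at 48.2, 61.0 and 53.2 CPM with IWR-1, against 83.6, 111 and 84.3 CPM with DMSO (-0.78 ± 0.16, edgeR adjusted p = 0.0150). The 15 aminoacyl-tRNA synthetases had 0 calls and a median of -0.18, with hars at -0.37 ± 0.13 and iars2 at -0.18 ± 0.15.

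Regulators of mitochondrial biogenesis had 0 calls of 15 and a median of 0.01; ppargc1b, a coactivator of the programme, had a log2 fold change of -0.09 ± 0.14, and myca one of 0.40 ± 0.18. Over all tested genes 3.59% were called lower and 3.88% higher. Of 32 genes of mitochondrial mass, membranes and import (list median -0.29) 1 was called lower. This was phb2b, an inner-membrane prohibitin (-0.63 ± 0.14, edgeR adjusted p = 0.0246). Of 27 genes of the mitochondrial stress response and mitophagy (list median -0.08) 4 were called lower and 0 higher. Those were the matrix chaperones hspd1, hspe1 and hspa9, and asns, an asparagine synthetase induced in mammals when mitochondria are stressed. hspd1 stood at 103, 113 and 103 CPM with IWR-1, against 176, 196 and 179 CPM with DMSO (log2 fold change -0.79 ± 0.13, edgeR adjusted p = 0.00506). Only hspd1 and asns among the 18 called genes were also called with each of the 6 libraries left out in turn; the other 16 had edgeR adjusted p values without IWR-1 replicate 3 that lay between 0.0740 (hspa9) and 0.232 (elac2).

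**Figure D5:**
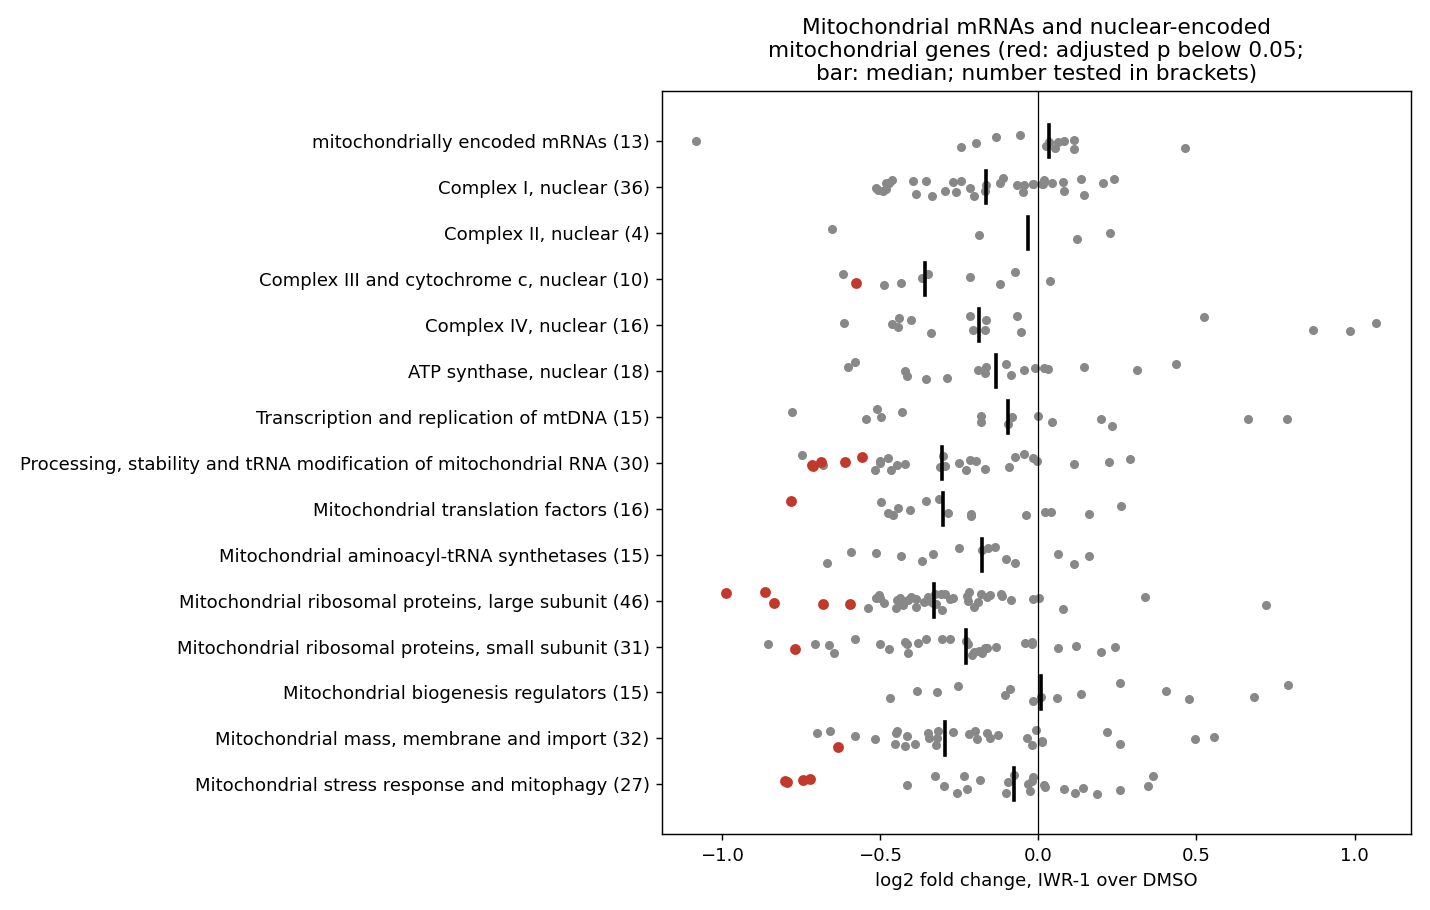
Log2 fold change of IWR-1 over DMSO for the 13 mitochondrially encoded mRNAs and for 14 lists of nuclear-encoded mitochondrial genes; each point is 1 gene, black bars are medians and red points have an edgeR adjusted p below 0.05. The medians run between -0.36 (complex III and cytochrome c) and 0.03 (mitochondrially encoded mRNAs).

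Markers of the cell types in the segment moved as well, in both directions, and their part in the values of the mitochondrial genes was not tested. Beside the counts below, 3.88% of all tested genes were called higher and 3.59% lower. With the replicate block these shares were 8.96% and 8.86%. Of 21 fast muscle markers 1 was higher (myhz1.2) and 0 lower, with summed levels of 102849 to 110371 CPM with IWR-1, against 95758 to 107091 with DMSO. Of 12 slow muscle markers, a fibre type rich in mitochondria, 0 were higher and 1 lower (atp2a2a, -0.82 ± 0.15, edgeR adjusted p = 0.00786); all 12 had a log2 fold change below 0, and their sum was 3056 to 3562 CPM with IWR-1, against 3714 to 4065 with DMSO. Of 15 markers of ionocytes, the mitochondrion-rich cells of the skin, 4 were higher (slc12a10.2, atp1a1a.2, atp1a1a.3 and kcnj1a.2) and 0 lower, with sums of 613 to 670 CPM with IWR-1, against 581 to 647 with DMSO. Macrophage markers were higher in 7 of 18 cases, with sums of 882 to 1327 CPM with IWR-1, against 943 to 1084 with DMSO. Fibroblast matrix markers were lower in 9 of 18 cases (18738 to 22945 CPM with IWR-1, against 27344 to 29274 with DMSO). Epidermis markers were lower in 5 and higher in 2 of 18 (3982 to 5546 CPM with IWR-1, against 6338 to 7744 with DMSO). Erythrocyte markers were higher in 2 and lower in 1 of 10, at 103 to 124 CPM with IWR-1, against 96.9 to 110 with DMSO, and 0 of 23 neuron markers were called, at 686 to 777 CPM with IWR-1, against 684 to 762 with DMSO. Median log2 fold changes were 0.82 for ionocyte, 0.74 for erythrocyte, 0.70 for macrophage and 0.11 for fast muscle markers. They were -0.08 for neuron, -0.36 for slow muscle, -0.42 for epidermis and -0.54 for fibroblast markers. Below 0 lay 4 of 15 ionocyte, 1 of 10 erythrocyte and 3 of 18 macrophage markers. With the replicate block the counts were 4 higher and 1 lower for each of fast muscle, neuron and erythrocyte markers, 2 lower for slow muscle, 6 higher and 1 lower for ionocytes, 10 higher for macrophages, 1 higher and 12 lower for fibroblasts and 2 higher and 9 lower for epidermis. Tested markers are those that passed the expression filter, so none could stand at 0 in both groups.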

How the data were processed

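The 6 libraries (3 IWR-1, 3 DMSO) were grouped by the sample titles. RNA was isolated with a kit intended for formalin-fixed material, and directional libraries followed rRNA depletion, per the labels' protocols. The submitters' processing notes name GRCz11 as the build, with cutadapt, FastQC, STAR and featureCounts as tools. Not given in the sources used here are their versions, the strand setting and the treatment of reads that span 2 genes. Nuclear copies of mitochondrial DNA can share reads with the genes described. The authors deposited raw counts per gene, and a comparison table of log2 fold changes and adjusted p-values with DESeq2-style columns, per the file headers. Gene positions are from the deposited annotation; names of the tRNAs and rRNAs, which it does not give, come from NCBI RefSeq (GRCz12tu), matched by identical MT start and end (37 of 37).

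Counts were fitted with R 4.3.3 and edgeR 4.0.16 by a robust quasi-likelihood fit (TMM scaling; 19562 genes kept by filterByExpr, 2788 removed; common biological coefficient of variation 17.0%). SEs come from the fold change and its F statistic. Shares and ratios used unscaled counts; log2 differences are of group means on the log scale. Spread within groups used log2 CPM with a prior count of 2. The fitting was tested on simulated data. p-values measure the spread between pooled samples. Reads carry no molecular identifiers per the labels, so counts are not independent molecules.

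Samples with the same replicate number deviated together (correlation of deviations from group means 0.293, 0.341 and 0.159 for numbers 1, 2 and 3, all over 0.1), a pairing that comes from the data and not from the labels. Alternatives were this replicate block, RLE, upper-quartile, nuclear-only and mitochondrial-mRNA scaling, no filter, a filter of CPM at least 1 in 3 samples, thinned counts, DESeq2 1.42.0, limma 3.58.1 voom with sample weights, other denominators and each library left out; 2 more were chosen after seeing the data (the block without DMSO replicate 2, and the block with nuclear-only scaling). The block without DMSO replicate 2 leaves IWR-1 replicate 2 unpaired, so that fit compares replicate numbers 1 and 3 alone. The members, lists and tests were chosen with earlier results of these data known. Named genes are all rRNA and mRNA members, the 4 tRNAs with the most counts and any called tRNA, and from each list up to 4 called genes with the smallest p or, with none called, the 2 with the highest level. One gene that this rule names is not reported here.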

Additional observations from a re-analysis of the deposited data

How the results depend on the processing

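The counts of called genes depended on the fit. Against 0 mitochondrially encoded genes called higher, the replicate block and the block with nuclear-only scaling gave 3 each, limma voom 3, the block without DMSO replicate 2 gave 1, and single libraries left out gave 0 to 2. Against 0 called lower, the block and the block with nuclear-only scaling gave 4 each, library sizes set to the mitochondrial mRNA counts 2 (trnQ and trnE), the block without DMSO replicate 2 gave 2 (trnW and mt-nd6), and single libraries left out gave 0 to 1. Against 0 genes of the nuclear lists called higher, the block, the block with nuclear-only scaling and limma voom gave 7 each; upper-quartile scaling, mitochondrial mRNA library sizes, DESeq2 and the block without DMSO replicate 2 gave 1 each; single libraries left out gave 0 to 5. Against 18 called lower, the block gave 66, the block with nuclear-only scaling 62, limma voom 50, the block without DMSO replicate 2 gave 46, DESeq2 28, mitochondrial mRNA library sizes 11, and single libraries left out 2 to 24. The share of all tested genes called lower was 3.59% without a block. In these fits it was, in order, 8.86%, 8.54%, 10.9%, 5.52%, 4.45%, 2.75%, and 0.957% to 5.46% with single libraries left out. RLE and nuclear-only scaling, thinned counts and both filters left the counts of called member and list genes within 1.5 times. The replicate block changed no other call of a mitochondrially encoded gene. The log2 difference of the mRNA share (-0.02) was 0.0212 with nuclear counts as denominator and -0.0876 to 0.0908 with single libraries left out; that of minus-strand to plus-strand tRNA (-0.35) was -0.77 to 0.0376 with single libraries left out. The sign of the log2 fold change turned for 12 of 32 genes with the block and without DMSO replicate 2, 11 of 32 in limma voom, 10 of 32 without DMSO replicate 2 and 7 of 32 without IWR-1 replicate 3. The cause of these shifts was not tested. Depth limits the tRNAs, with at most 175 counts in a library; 4 of 21 were too low to test.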
